A study of Mus musculus with 6 samples.

Results

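The interferon-stimulated genes examined here were a list of 46 genes that cells switch on after exposure to interferon, read in RNA-Seq count tables of 3T3-L1 adipocytes infected with adenovirus. The members were found by gene symbol, and 45 of the 46 were present among the 24421 gene symbols of the tables; *Rnf213* was not analysed here. All 45 passed the filter on low counts that kept 12766 genes for testing. 3T3-L1 is a mouse preadipocyte line that becomes fat-storing adipocytes under a hormone cocktail, here insulin, a thiazolidinedione, dexamethasone and IBMX. The labels give the strain of the line as C57BL/6, which was not checked here. On day 7 of differentiation the cells were given adenovirus at 100 pfu per cell, with *LacZ* as its insert in the control group (AdLacZ, n = 3 libraries) and *Lmo3* in the other (AdLmo3, n = 3 libraries), and RNA was taken 3 days later. Every group was therefore infected, and no uninfected library was among the samples, so the response to the virus itself was not measured. The design asks how *Lmo3*, a LIM-domain transcriptional cofactor, changes adipocyte transcripts.

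Interferons are secreted when a cell senses foreign nucleic acid. They bind receptors that act through the kinases JAK1 and TYK2 to assemble the ISGF3 complex, of which STAT2 and IRF9 are part and which binds the interferon-stimulated response element (ISRE) in promoters and switches on genes that block viral entry, translation and replication. Interferon gamma acts at another promoter element, the gamma-activated sequence (GAS). Adipocytes carry interferon receptors, and adenovirus is a double-stranded DNA virus that host sensors can recognise.

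The ISRE is the element that ISGF3 binds, so the stretches around its core are shown for some members that held a match, from several roles. The core searched was GAAANNGAAA on both strands, in RefSeq promoters running from 250 bases before to 50 bases after the gene start on GRCm38.p6. Of the 45 members, 34 had such a window and 16 of these held a match (47.1%), against 1079 of all 27025 genes with a window (3.99%). Of the 55 further interferon-stimulated genes described below, 41 had a window and 23 held a match (56.1%). The GAS letters TTCNNNGAA were found in 7 of the 34 members with a window (20.6%) and in 9.55% of all genes with a window. In *Bst2* the GAS match overlaps an ISRE core. Capitals mark the bases of the core matches below, each sequence is written 5′ to 3′ along the strand of its gene, and stretches with TTTC in capitals hold the core on the opposite strand.
Isg15: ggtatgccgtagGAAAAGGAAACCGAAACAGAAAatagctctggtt
Stat2: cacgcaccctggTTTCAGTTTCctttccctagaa
Ifit1: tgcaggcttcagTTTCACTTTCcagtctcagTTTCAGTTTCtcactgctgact
Ifit3: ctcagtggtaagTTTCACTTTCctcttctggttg
Rsad2: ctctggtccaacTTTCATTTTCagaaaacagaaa
Bst2: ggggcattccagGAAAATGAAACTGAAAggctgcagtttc
Gbp3: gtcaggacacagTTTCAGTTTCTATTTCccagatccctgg
Gbp7: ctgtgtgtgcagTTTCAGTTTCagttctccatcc
Cxcl10: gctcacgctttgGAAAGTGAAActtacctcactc

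The *Isg15* stretch lies at chr4:156200863-156200908 on the minus strand and holds 3 overlapping matches. The *Stat2* stretch is at chr10:128270264-128270297 on the plus strand. The *Ifit1* stretch, chr19:34640773-34640825, and the *Ifit3* stretch, chr19:34583361-34583394, are both on the plus strand of chromosome 19. A second *Ifit3* stretch, at chr19:34583395-34583428, adjoins the first and is not shown. *Rsad2* is at chr12:26456551-26456584 and *Bst2* at chr8:71537575-71537614, both on the minus strand. *Gbp3* (chr3:142559987-142560026) and *Gbp7* (chr3:142530271-142530304) are neighbours on the plus strand of chromosome 3, and *Cxcl10* is at chr5:92349081-92349114 on the minus strand. All of the stretches shown lie before the gene start that RefSeq gives, while some not shown, such as those of *Ifih1* and *Eif2ak2*, lie after it. A match describes letters in the window of the reference genome, not read from these cells, and does not show that a factor bound there.

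The 6 libraries held 28035639 to 38332335 counts, with 7.15% to 8.94% of the reads in no gene, and 3 counts corresponded to 0.0768 to 0.111 CPM. CPM are counts scaled to a library total of 1000000, with a TMM factor of 0.9637 to 1.039. The endogenous *Lmo3* gene had 0 counts in all 6 libraries; the adenoviral *Lmo3* was codon-optimised, so the table does not check the labels by this gene. Adipocyte markers such as *Adipoq*, the hormone adiponectin, at 1707 to 4384 CPM, fitted the labelled cell type. In the edgeR test described below, 8 of 10 adipocyte markers were called higher in AdLmo3 (80%, against 2.71% of all tested genes). In the interferon-stimulated genes, 2 libraries of the AdLmo3 group stood apart from the other 4, replicate 1 as the lowest and replicate 3 as the highest, and the results below are given with and without them.

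No member of the list passed the test between AdLmo3 and AdLacZ, where the differences between group means were within the spread between replicates. By edgeR's quasi-likelihood test with Benjamini-Hochberg adjustment over all 12766 genes, 0 of 45 members had an adjusted p under 0.05 in either direction, beside 2.71% of all tested genes called higher and 1.57% called lower. At an unadjusted p under 0.05, 0 of 45 members were higher or lower, beside 11.1% and 9.54% of all genes, and DESeq2 and limma voom also called 0 members. The 2 groups overlapped for all 45 members, whereas 13.3% of all genes lay wholly higher and 13.2% wholly lower in AdLmo3. The fitted fold changes were above 0 for 40 members and below 0 for 5, with a median of 0.24 on the log2 scale against 0.00138 for all genes, and their standard errors ran from 0.23 to 0.70, with a median of 0.447 against 0.0981 for all genes. With limma voom the median was 0.070, with 31 members above 0 and 14 below. The sign of the edgeR median rested on AdLmo3 replicate 3. Without AdLmo3 replicate 3 it was -0.318 and 43 of 45 members were below 0, and without AdLmo3 replicate 1 it was 0.600 and 44 of 45 were above 0.

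**Figure D1:**
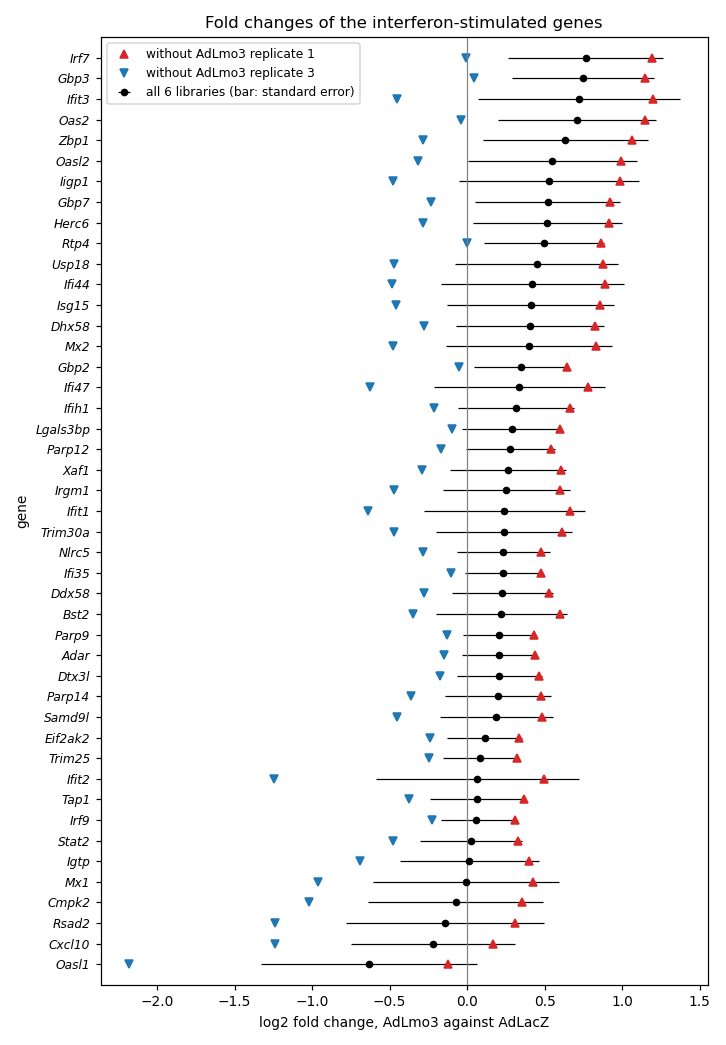
The plot of fold changes gives, for each of the 45 genes (vertical axis), the log2 fold change of AdLmo3 against AdLacZ (horizontal axis) from all 6 libraries as a black point with its standard error, and the values without AdLmo3 replicate 1 (red) or replicate 3 (blue). The black points run from -0.63 to 0.76, and 43 of the blue points fall below 0.

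Among the signalling and transcription members, *Irf7*, the regulator that amplifies interferon production, had the largest fold change of all 45. It was read at 62.3, 57.3 and 72.0 CPM in the 3 AdLacZ libraries and at 34.2, 92.9 and 199 CPM in AdLmo3 replicates 1, 2 and 3. One AdLmo3 library was below all the controls and the other 2 above them, and the log2 fold change of 0.76 ± 0.50 (SE) had an adjusted p of 0.444 in the edgeR test.

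The ISGF3 genes *Stat2* and *Irf9* had smaller fold changes. *Stat2* had 166, 181 and 208 CPM in AdLacZ and 101, 164 and 300 CPM in AdLmo3, a log2 fold change of 0.02 ± 0.33 (adjusted p = 0.979, edgeR). *Irf9*, the DNA-binding subunit, had 64.0, 58.2 and 62.5 CPM against 40.8, 64.5 and 87.6 CPM. Its log2 fold change was 0.06 ± 0.23 (adjusted p = 0.921, edgeR), with AdLmo3 replicate 1 below and replicate 3 above every control. *Nlrc5*, the activator of MHC class I genes, ranged from 28.2 to 70.5 CPM.

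*Isg15* encodes a ubiquitin-like protein that is attached to newly made proteins. It had 122, 117 and 136 CPM in AdLacZ and 45.8, 136 and 317 CPM in AdLmo3, that is 125 ± 9.56 against 166 ± 138 CPM (SD, n = 3 each). The group means differed by less than the AdLmo3 spread (log2 fold change 0.41 ± 0.54, adjusted p = 0.730, edgeR). *Herc6*, an ISG15 ligase of the mouse, had 104, 96.3 and 136 CPM against 59.3, 125 and 299 CPM, and its log2 fold change was 0.52 ± 0.48 (adjusted p = 0.607, edgeR). *Usp18*, which removes ISG15 and restrains the receptor, had the same order, from 39.1 CPM in AdLmo3 replicate 1 to 239 CPM in replicate 3. The RING ligases *Trim25* and *Trim30a* spanned 198 to 435 and 62.3 to 271 CPM.

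The cytosolic nucleic acid sensors were led by *Zbp1*, the sensor of Z-form nucleic acid. It had 45.1, 37.5 and 52.1 CPM in AdLacZ and 22.2, 51.3 and 136 CPM in AdLmo3 (log2 fold change 0.63 ± 0.53, adjusted p = 0.566, edgeR). The RNA helicases *Ddx58* (RIG-I), *Ifih1* (MDA5) and *Dhx58* (LGP2) had log2 fold changes of 0.23, 0.32 and 0.40. In all 4 sensors AdLmo3 replicate 1 was below and replicate 3 above the 3 controls.

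The IFIT proteins bind foreign RNA and hold back its translation. *Ifit3* had 146, 222 and 225 CPM in AdLacZ and 71.5, 218 and 690 CPM in AdLmo3. Its 9.65-fold gap between AdLmo3 replicates 1 and 3 was the widest of the 45 members on a scale with a prior count of 2 (for *Oasl1*, with few counts, it was 8.20-fold), and its log2 fold change was 0.72 ± 0.65 (adjusted p = 0.599, edgeR). Since 41.1% of its 75-base stretches also occur in *Ifit3b*, the reads of that pair cannot be assigned with certainty. *Ifit1* had 188, 261 and 250 CPM against 88.4, 211 and 525 CPM, a log2 fold change of 0.24 ± 0.52 (adjusted p = 0.846, edgeR). *Ifit2* had 59.3, 108 and 128 CPM against 31.5, 51.6 and 228 CPM, so that here AdLmo3 replicate 2 also lay below the controls.

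Among the enzymes that act on double-stranded RNA, *Oas2*, which makes the second messenger that activates RNase L, had 61.4, 43.2 and 55.9 CPM in AdLacZ and 26.8, 77.3 and 159 CPM in AdLmo3 (log2 fold change 0.71 ± 0.51, adjusted p = 0.492, edgeR). *Oasl2*, an OAS-like protein, had 158, 132 and 190 CPM against 66.1, 190 and 447 CPM (log2 fold change 0.55 ± 0.55, adjusted p = 0.632, edgeR).

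*Oasl1*, which holds back translation of *Irf7*, was the lowest member, with 37, 42 and 36 counts in AdLacZ and 6, 11 and 47 counts in AdLmo3. Its log2 fold change was the most negative of the 45, -0.63 ± 0.70 (adjusted p = 0.670, edgeR). Without AdLmo3 replicate 3, its highest library of that group, it was -2.18 (adjusted p = 0.0294, edgeR). The value was -0.12 without AdLmo3 replicate 1 (adjusted p = 0.936) and -0.23 without replicate 2 (adjusted p = 0.918). *Eif2ak2*, the kinase PKR, spanned 117 to 249 CPM over the 6 libraries, and the RNA-editing enzyme *Adar* 59.4 to 130 CPM, with log2 fold changes of 0.11 and 0.21.

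The PARP-DTX3L group modifies proteins with ADP-ribose or ubiquitin. *Parp9*, *Parp12*, *Parp14* and *Dtx3l* had log2 fold changes of 0.20 to 0.28 and gaps between AdLmo3 replicates 3 and 1 of 2.10 to 2.82-fold. For all 4, AdLmo3 replicate 2 fell within the range of the controls. *Parp9* and *Dtx3l* overlap on opposite strands, and the strand setting of the counting is not given in the sources used here.

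Of the 10 other antiviral effectors, *Bst2* (tetherin, which holds budding virus at the cell surface) had 260, 166 and 228 CPM in AdLacZ and 102, 240 and 420 CPM in AdLmo3 (log2 fold change 0.22 ± 0.42, adjusted p = 0.823, edgeR). *Rsad2* (viperin) had 75.3, 168 and 153 CPM against 31.4, 80.6 and 248 CPM, and its neighbour *Cmpk2*, a nucleotide kinase, 48.3, 99.2 and 86.6 CPM against 24.0, 52.9 and 147 CPM. Both had fitted fold changes just below 0, as did the dynamin-like GTPase *Mx1*, at -0.14, -0.07 and -0.01. *Mx2* and the less well characterised *Ifi44*, *Rtp4*, *Samd9l*, *Xaf1* and *Ifi35* had log2 fold changes of 0.19 to 0.50, with *Ifi44* spanning 40.5 to 324 CPM.

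The interferon-inducible GTPases attack vacuoles that hold pathogens. *Gbp3* had the lowest adjusted p of the 45 members, 0.406 in the edgeR test, with 78.3, 60.8 and 79.4 CPM in AdLacZ and 45.7, 104 and 218 CPM in AdLmo3 (log2 fold change 0.75 ± 0.46). *Gbp7* had 102, 103 and 132 CPM against 59.1, 132 and 294 CPM (log2 fold change 0.52 ± 0.47, adjusted p = 0.597, edgeR). *Iigp1*, an immunity-related GTPase, had 158, 187 and 206 CPM against 68.5, 195 and 531 CPM (log2 fold change 0.53 ± 0.58, adjusted p = 0.670, edgeR).

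In these 3 GTPases, too, the AdLmo3 group held both the lowest and the highest library. *Gbp2*, *Igtp*, *Irgm1* and *Ifi47* had log2 fold changes of 0.01 to 0.35.

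The secreted and antigen-presentation products were *Lgals3bp*, *Cxcl10* and *Tap1*. *Lgals3bp*, a secreted glycoprotein that binds galectins, had 1105, 780 and 1110 CPM in AdLacZ and 642, 1227 and 1795 CPM in AdLmo3 (log2 fold change 0.29 ± 0.32, adjusted p = 0.670, edgeR). The chemokine gene *Cxcl10*, chosen after its values were seen, had 26.2, 41.3 and 34.3 CPM against 11.4, 17.4 and 59.5 CPM. With all libraries its log2 fold change was -0.22 ± 0.53 (adjusted p = 0.864, edgeR). Without AdLmo3 replicate 3, its highest library of that group, it was -1.24 (adjusted p = 0.0335, edgeR). The sign reversed without AdLmo3 replicate 1 (0.17, adjusted p = 0.874) and without replicate 2 (0.05, adjusted p = 0.974). *Tap1*, a subunit of the peptide transporter for MHC class I, spanned 71.8 to 202 CPM.

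The spread within the AdLmo3 group was common to the whole list. For all 45 members AdLmo3 replicate 1 was the lowest and replicate 3 the highest library of its group, and the 3 AdLacZ libraries lay between them. Replicate 1 was below and replicate 3 above all 3 controls in 5.15% of all tested genes. With a prior count of 2 added, the level in replicate 3 was 2.10 to 9.65 times that in replicate 1, with a median of 4.52, whereas the median over all genes was 1.00. More than a 2-fold gap was seen in 45 of 45 members and in 2.48% of all genes. These 2 libraries were set side by side after their values were seen, each is a single library, and no test was made.

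**Figure D2:**
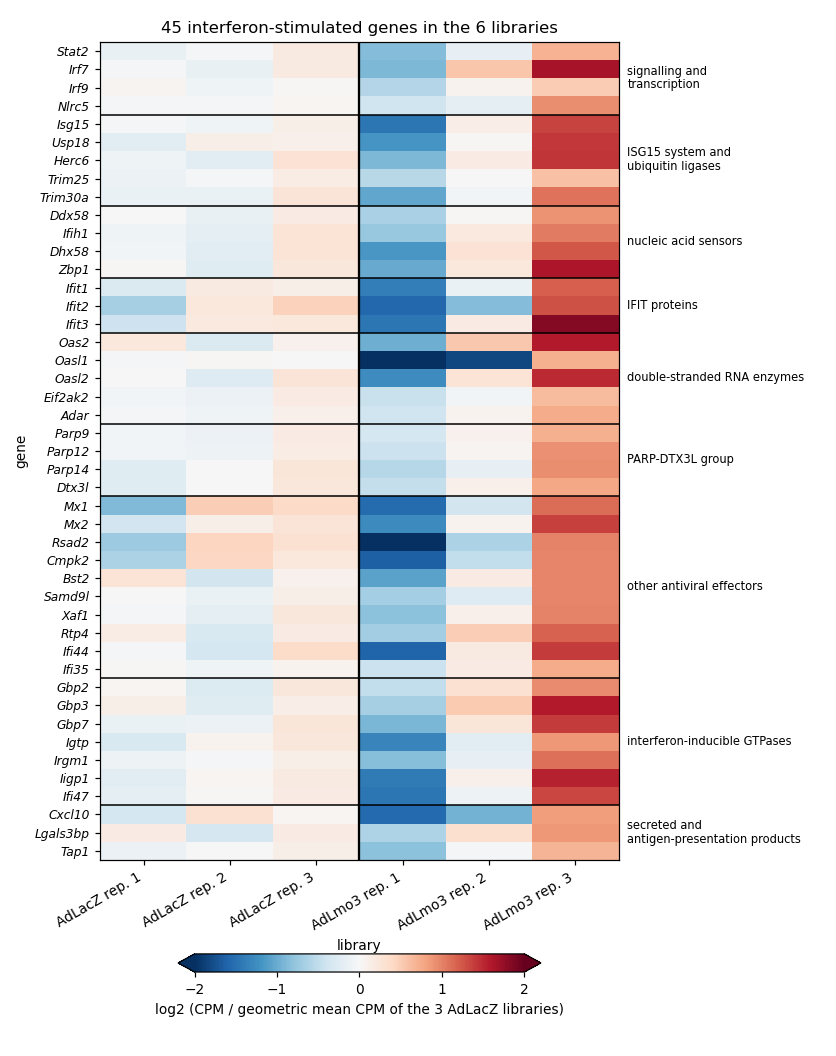
The heat map gives the level of each of 45 genes (rows, grouped by role) in each library (columns), as the log2 ratio of its CPM to the geometric mean of the 3 AdLacZ libraries (blue lower, red higher). AdLmo3 replicate 1 is blue and replicate 3 red in all 45 rows.

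The standard deviation of log2 CPM over the 3 AdLmo3 libraries had a median of 1.09 over the members, against 0.229 over the 3 AdLacZ libraries, and was larger in AdLmo3 for 45 of 45 members. Over all tested genes both medians were close, at 0.113 and 0.114, and it was larger in AdLmo3 for 48.8%. AdLmo3 replicate 2 sat within the control range for 27 members, above it for 11 and below it for 7. Those above included *Irf7*, *Oas2* and *Gbp3*, and those below included *Oasl1*, *Ifit2* and *Cxcl10*.

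The median gap of each role was as follows, with no test of the differences. It was 7.21-fold for the 3 IFIT genes, 5.93-fold for the 5 double-stranded RNA enzymes and 5.04-fold for the ISG15 system. The 10 other antiviral effectors had 5-fold, the GTPases 4.76-fold and the nucleic acid sensors 4.29-fold. It was 2.81-fold for the secreted and antigen-presentation products, 2.72-fold for the signalling genes and 2.45-fold for the PARP-DTX3L group. Roles overlapped in their ranges, for example 2.10 to 2.82-fold in the PARP-DTX3L group and 2.13 to 8.20-fold for the double-stranded RNA enzymes. Within the 34 members with a promoter window, the log2 gap had a median of 2.15 for the 16 with an ISRE core and 1.73 for the 18 without, and the ranges overlapped (1.09 to 3.27 and 1.10 to 3.04).

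**Figure D3:**
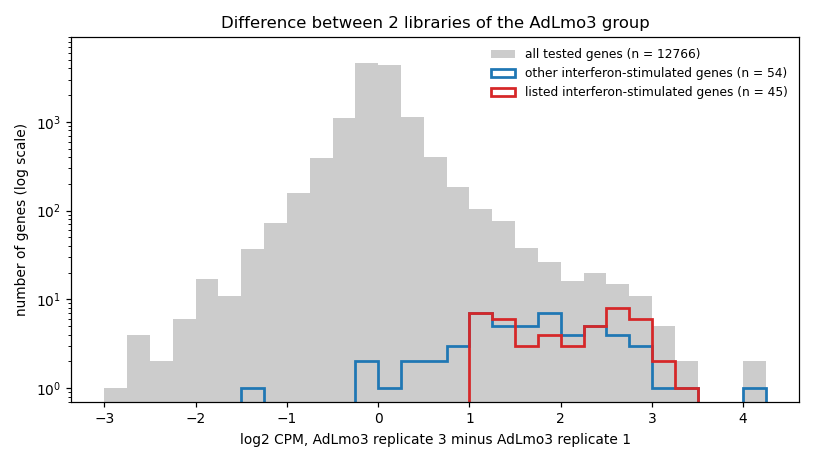
The histogram counts genes (vertical axis, log scale) by the log2 CPM difference between AdLmo3 replicates 3 and 1 (horizontal axis) for all 12766 tested genes (grey), the 45 listed genes (red) and 54 other interferon-stimulated genes (blue). The red outline runs from 1.07 to 3.27, to the right of most of the grey.

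After the group means were removed, the deviations of the members correlated with a mean Pearson's r of 0.950 over the 990 pairs of members and 6 libraries, and the lowest pair was at 0.689. The mean over all pairs of the 12766 tested genes was 0.00046. These points share library, depth and cell state, and AdLmo3 replicates 1 and 3 carried most of the spread: without replicate 1 the mean r was 0.890, and without replicate 3 it was 0.868. The member least like the rest was *Mx1*, with an r of 0.894 against the mean of the others, and *Stat2* was at 0.998.

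Among the controls the members also moved, by less. The highest AdLacZ library exceeded the lowest by 1.33-fold in the median, with a range of 1.03 to 2.59-fold. Replicate 3 was the highest AdLacZ library for 35 of 45 members, while it was the highest for 29.9% of all tested genes. The lowest AdLacZ library was replicate 1 for 22 members and replicate 2 for 23. *Mx1*, *Rsad2*, *Cmpk2*, *Ifit2* and *Cxcl10* were among those lowest in replicate 1, *Mx1* at 17.6 CPM against 45.7 and 42.4 CPM, whereas *Bst2* and *Oas2* were highest there.

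Summed over the 45 members, the level was 5620, 5518 and 6683 CPM in the AdLacZ libraries and 3267, 6238 and 12390 CPM in AdLmo3 replicates 1, 2 and 3. The sum in AdLmo3 replicate 2 lay within the control range. RNA was taken from whole cultures, so fewer cells expressing these genes and less RNA per cell cannot be told apart.

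Compared per length of merged exons (FPKM, here the CPM divided by the exon length in kilobases), the levels of the members spanned 3 orders of magnitude. The mean over the 6 libraries had a median of 24.7 FPKM and ran from 0.344 FPKM for *Oasl1* to 390 FPKM for *Lgals3bp*. *Bst2* followed at 261 FPKM, *Isg15* at 193 FPKM, *Ifit3* at 150 FPKM and *Ifit1* at 95.6 FPKM. By library, *Lgals3bp* ran from 226 to 631 FPKM, *Bst2* from 113 to 465 FPKM and *Isg15* from 60.5 to 419 FPKM, so the ranges of these neighbours in the order overlapped. *Nlrc5* was the second lowest at 4.76 FPKM. In every library 44 members were above 1 FPKM and 26 above 10 FPKM.

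**Figure D4:**
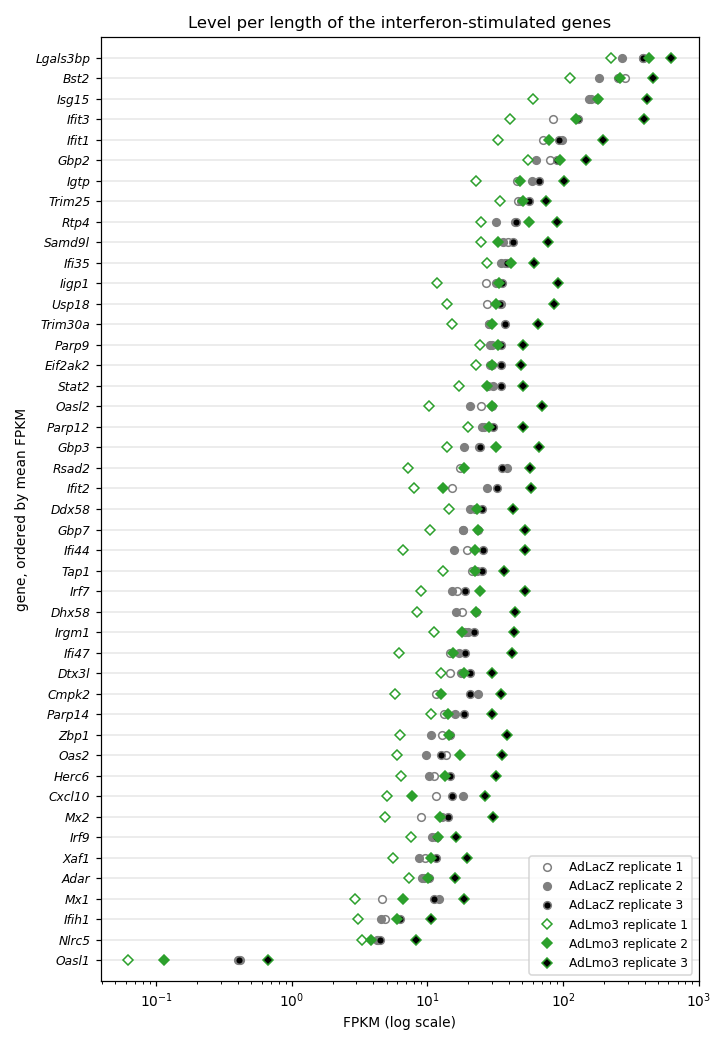
The plot of levels gives the FPKM (horizontal axis, log scale) of the 45 genes (vertical axis, ordered by mean FPKM) in each library, with circles for AdLacZ and diamonds for AdLmo3. In every row the open diamond (AdLmo3 replicate 1) is leftmost and the black diamond (replicate 3) rightmost.

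The genes upstream of the list were read in the same way. Of 10 interferon genes, *Ifnb1* (interferon beta) had 0, 4 and 0 counts in AdLacZ and 3, 6 and 8 counts in AdLmo3, which is too few for a comparison, and the other 9 had at most 1 count in a library. Among the receptors, *Ifnar1* had 119, 104 and 118 CPM in AdLacZ and 109, 104 and 110 CPM in AdLmo3. *Ifngr1* (131, 117 and 134 against 142, 151 and 161 CPM) and *Ifnar2* (61.8, 57.1 and 60.0 against 58.7, 69.0 and 66.6 CPM) had the highest FPKM, with adjusted p of 0.126 and 0.427 in the edgeR test. The 5 tested receptors had gaps between AdLmo3 replicates 3 and 1 of 0.879 to 1.24-fold.

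Of 10 JAK-STAT kinases and inhibitors, 0 had an adjusted p under 0.05 (edgeR), against 4.28% of all tested genes. At an unadjusted p under 0.05, 1 was higher and 1 lower (10% each, against 11.1% and 9.54% of all genes). *Jak1* had 445, 461 and 511 CPM in AdLacZ and 417, 397 and 394 CPM in AdLmo3 (log2 fold change -0.23 ± 0.08, adjusted p = 0.131). *Ptpn11*, the phosphatase SHP2, had 289 to 310 CPM in AdLacZ and 290 to 314 CPM in AdLmo3. The gap between AdLmo3 replicates 3 and 1 had a median of 1.04-fold over the 10.

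Of 16 tested adaptors and kinases of nucleic acid sensing, 1 rose (6.25%, against 2.71% of all genes called higher). *Mavs*, the mitochondrial adaptor for RIG-I and MDA5, had 70.7, 73.1 and 73.4 CPM in AdLacZ and 86.0, 88.4 and 85.7 CPM in AdLmo3, groups that did not overlap. Its log2 fold change was 0.26 ± 0.06 with an adjusted p of 0.0405 in the edgeR test. The call was lost when any of the 6 libraries was left out, with log2 fold changes of 0.24 to 0.27, and also with library totals only (adjusted p = 0.0883) and without the filter on low counts (adjusted p = 0.0583). Its gap between AdLmo3 replicates 3 and 1 was 0.997-fold, so the one called gene of the pathway did not vary with the 45 members. *Myd88*, the adaptor of Toll-like receptors, had 49.2 to 53.3 CPM in AdLacZ and 46.8 to 54.3 CPM in AdLmo3. *Tlr3*, a sensor of double-stranded RNA named here after its values were seen, was the only one of the 16 with a gap above 2-fold, at 31.3, 39.0 and 80.3 CPM in AdLmo3. For 5 of the 16 (31.2%, against 5.15% of all genes) AdLmo3 replicate 1 was below and replicate 3 above all 3 controls. These were *Tlr3* with a 2.56-fold gap, the nucleases *Trex1* (1.86-fold) and *Samhd1* (1.77-fold), the kinase *Ikbke* (1.36-fold) and *Myd88* (1.15-fold).

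A list of 55 further interferon-stimulated genes, 54 of them tested, gave 0 calls at an adjusted p under 0.05 by edgeR, against 4.28% of all tested genes. DESeq2 called 1 (*Ccl5*), beside 1110 of all 12766 genes. At an unadjusted p under 0.05 (edgeR), 2 were higher (3.7%, against 11.1% of all genes) and 0 lower (against 9.54%). The median log2 fold change of the 54 genes was 0.26, with 47 above 0 and 7 below. AdLmo3 replicate 3 exceeded replicate 1 by a median of 3.31-fold, and the 3 controls lay between these for 45 of 54 (83.3%, against 5.15% of all tested genes).

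The 2 genes of that list with the highest FPKM were among those whose controls did not lie between AdLmo3 replicates 1 and 3. *Ifi27l2a* had 160, 74.6 and 105 CPM in AdLacZ and 166, 284 and 466 CPM in AdLmo3. Its groups did not overlap, and its log2 fold change was 1.43 ± 0.38 (adjusted p = 0.0815, edgeR). It was called without AdLmo3 replicate 1, its lowest library of that group (log2 fold change 1.73, adjusted p = 0.0254), and without the filter on low counts (adjusted p = 0.0238). DESeq2 (adjusted p = 0.0602) and limma voom (adjusted p = 0.0872) did not call it. Leaving out any other library gave no call either (edgeR, adjusted p = 0.0755 to 0.260). *Ifi27* had 501 to 550 CPM in AdLacZ and 532 to 668 CPM in AdLmo3, and AdLmo3 replicate 3 was the lowest library of its group.

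Other lists were read beside these results. Of 7 tested NF-kappaB targets, 0 were called by edgeR, 3 were higher and 0 lower at an unadjusted p under 0.05 (42.9% higher, against 11.1% of all genes), and the groups of 2 lay wholly higher in AdLmo3 (28.6%, against 13.3%). Their gap between AdLmo3 replicates 3 and 1 had a median of 1.01-fold. *Nfkbia*, the inhibitor of NF-kappaB, had 27.58 to 29.99 CPM in AdLacZ and 33.9 to 37.5 CPM in AdLmo3, and *Nfkb2* 73.6 to 94.5 and 74.2 to 83.9 CPM. The macrophage and leukocyte markers summed to 16.4 to 17.7 CPM in AdLacZ and 13.1 to 15.7 CPM in AdLmo3, led by *Cd14* and *Cd68*. For 1 of the 4 tested markers, *Cd14* (8.13, 9.70 and 12.5 CPM in AdLmo3), the controls lay between replicates 1 and 3. Over these 4 markers the gap between AdLmo3 replicates 3 and 1 had a median of 0.653-fold, with a range of 0.563 to 1.53-fold. The pan-leukocyte marker *Ptprc* had 1 count in a single AdLacZ library and *Cd3e* 0 counts in all 6.

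Adipocyte markers summed to 18190 to 20480 CPM in AdLacZ and to 24370, 28040 and 29150 CPM in AdLmo3 replicates 1, 2 and 3, with gaps between replicates 3 and 1 of 0.939 to 1.45-fold. *Lpl*, the second of these markers by FPKM, had 8708 to 10413 CPM in AdLacZ and 10185 to 11885 CPM in AdLmo3. The preadipocyte and fibroblast markers, led by *Col1a1* and *Dlk1*, summed to 7167, 7722 and 5553 CPM in AdLacZ and 8624, 7990 and 5806 CPM in AdLmo3, so their sum was lowest in replicate 3 of both groups. *Ly6a*, itself inducible by interferon, was the exception in that list, at 44.7, 108 and 245 CPM in AdLmo3. The share of reads in no gene was also highest, at 8.94%, and the total lowest in AdLmo3 replicate 3. The part of these differences in the spread of the interferon-stimulated genes was not tested.

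**Figure D5:**
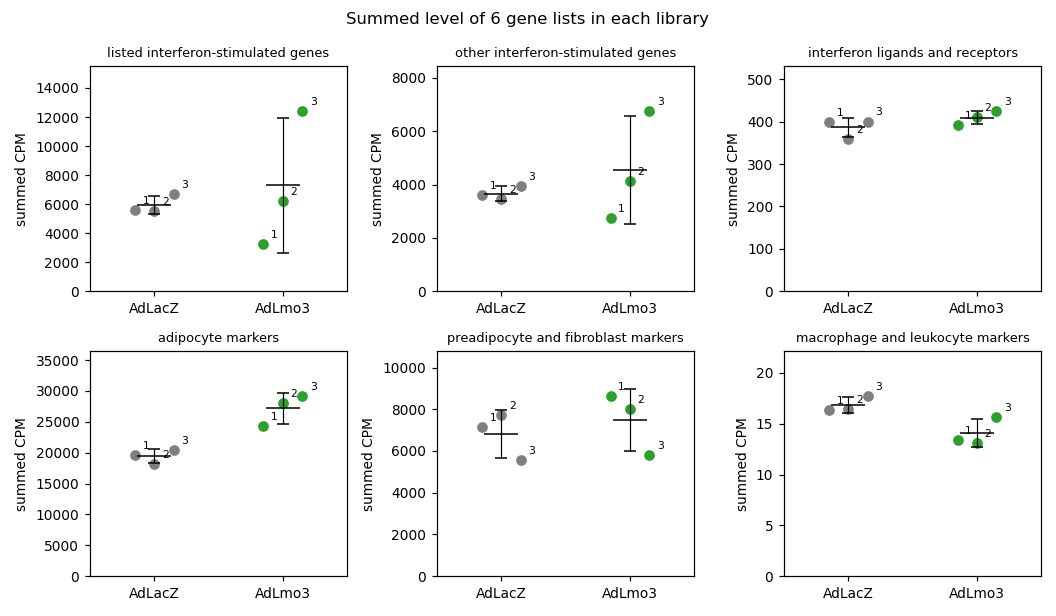
The panels give the summed CPM (vertical axis, from 0) of 6 gene lists in each library, with points numbered by replicate and the mean ± SD (n = 3) in black. In AdLmo3 the listed interferon-stimulated genes sum to 3267, 6238 and 12390 CPM, while interferon ligands and receptors stay between 393 and 424 CPM. The latter sum is almost wholly receptors, since *Ifnb1*, the highest of the ligands, has at most 0.296 CPM.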

How the data were processed

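3T3-L1 adipocytes were infected in 3 separate infections per virus. Per the labels, NEBNext Ultra II libraries were sequenced as single 75 bp reads. Per the submitters' processing notes, bcl2fastq, STAR 2.5.0b, mm10 and DESeq2 1.6.3 were used. The authors deposited raw counts per gene symbol, 1 table per library; the counting program, annotation and strand setting are not given in the sources used here. The lines for reads in no gene (7.15% to 8.94%) or ambiguous (0.476% to 0.543%) were left out.

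Groups were compared by edgeR's quasi-likelihood test (version 4.0.16, under R 4.3.3) on all 6 libraries without a block, after filterByExpr and TMM, and p-values were adjusted by Benjamini-Hochberg over 12766 genes (threshold 0.05). Standard errors are the log2 fold change divided by the root of F. Deviations of log2 CPM used a prior count of 2. FPKM used merged exons of GENCODE on GRCm38, and overlapping exons and shared stretches of 75 bp came from the same annotation. Promoters are RefSeq's for GRCm38.p6. Replicate pairs differed beyond counting noise (chi-square per degree of freedom 24.1 to 64.8). P-values measure the spread between these infections only. Limits from 3 counts cover counting error only.

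The members and gene lists were chosen with earlier results of these data known. Values by library are given for the 10 members with the largest fold change, the 5 highest in FPKM, *Stat2*, *Irf9* and *Isg15*, for called genes of the other pathway lists and, by library or as a range, the 2 highest in FPKM of each other list; markers are given mostly as sums. *Ifit2*, *Cxcl10*, *Rsad2*, *Cmpk2*, *Mx1*, *Ifnar1*, *Tlr3*, *Trex1*, *Samhd1* and *Ikbke* were added after their values were seen. Alternatives were DESeq2 1.42.0, limma 3.58.1 voom, other scalings and filters, a replicate block and leaving out each library. A gene of the list of further interferon-stimulated genes is not reported here by name. The fits were first tested on simulated data with known changes. Figures were drawn with matplotlib 3.10.9.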

Additional observations from a re-analysis of the deposited data

How the results depend on the processing

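The count of 0 called members was unchanged under DESeq2, limma voom, RLE, upper-quartile and library-total scaling, both other filters and the replicate block. It ran from 0 to 2 when a library was left out, the 2 (*Cxcl10* and *Oasl1*, both lower) without AdLmo3 replicate 3. In that setting 289 of 12930 tested genes were called, 94 of them lower. The library left out there was the highest of its group for all 45 members. The median log2 fold change of the members ran from -0.318 to 0.600 and their mean correlation from 0.868 to 0.973 when a library was left out. Library totals only shifted the median of all genes to -0.072 and split the calls over all genes into 266 higher and 501 lower, against 346 and 201 with TMM. All genes called numbered 547, 1110 with DESeq2, 767 with library totals only, 659 without a filter, and 77 to 501 when a library was left out. Further interferon-stimulated genes called were 1 with DESeq2, 1 without a filter, and 0 to 1 when a library was left out.

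Log2 fold changes of single genes changed sign. With limma voom *Ifit1* was at -0.10, *Stat2* at -0.11, *Irf9* at -0.0158 and *Ifit2* at -0.41. With library totals only *Stat2* was at -0.0531, *Irf9* at -0.0171 and *Ifit2* at -0.0131. With the replicate block *Ifit1* was at -0.11, *Stat2* at -0.11, *Irf9* at -0.00034 and *Ifit2* at -0.39, the median of the members was 0.079, 498 genes were called and *Mavs* had an adjusted p of 0.0646 in edgeR. The labels share replicate numbers, but deviations of same-numbered libraries correlated at 0.0345, 0.176 and 0.176, so the numbers were not taken as pairs.

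When a library was left out, the ranges were -0.00625 to 1.19 for *Irf7*, -0.45 to 1.20 for *Ifit3*, -0.0395 to 1.14 for *Oas2*, -0.29 to 1.06 for *Zbp1*, -0.32 to 1.00 for *Oasl2*, -0.48 to 0.98 for *Iigp1*, -0.23 to 0.92 for *Gbp7*, -0.29 to 0.92 for *Herc6*, -0.0943 to 0.60 for *Lgals3bp*, -0.35 to 0.60 for *Bst2*, -0.46 to 0.86 for *Isg15*, -0.64 to 0.66 for *Ifit1*, -0.48 to 0.33 for *Stat2*, -0.23 to 0.31 for *Irf9*, -1.25 to 0.50 for *Ifit2* and -1.24 to 0.17 for *Cxcl10*. The lowest of these values came without AdLmo3 replicate 3 in each. *Gbp3* (0.04 to 1.15) and *Oasl1* (-2.18 to -0.12) kept their signs. The cause was not tested. Apart from *Oasl1*, every member had at least 412 counts in each library.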

Other observations

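Of the 100 tested genes with the largest log2 difference between AdLmo3 replicates 3 and 1, 29 were among the 45 members, 27 were further interferon-stimulated genes and 44 were on neither list. Of all 12766 tested genes, 317 were more than 2-fold higher in replicate 3, 229 of them on neither list. The genes named next had a mean of at least 10 CPM and were chosen after their values were seen. *Gm12250*, a GTPase gene model, had 74.6, 84.7 and 116 CPM in AdLacZ and 34.8, 98.6 and 275 CPM in AdLmo3. *Gbp11*, a guanylate-binding protein, had 31.3, 29.8 and 39.6 CPM against 15, 36.3 and 68.3 CPM. *Ly6e*, a membrane protein that limits the entry of several viruses, had 452, 278 and 469 CPM against 264, 581 and 1160 CPM. *Ifi202b*, a DNA-binding protein of the interferon-inducible p200 family, had 78.6, 85.2 and 87.1 CPM against 45.8, 68.3 and 178 CPM. *Mpeg1*, a pore-forming protein of macrophages that was second in this order, had 13, 6.89 and 11 CPM against 5.43, 9.29 and 39.5 CPM. All 5 had their lowest library in AdLmo3 replicate 1 and their highest in replicate 3.

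Not every gene with such a gap had the order of the members. *Txnip*, an arrestin-like protein that restrains glucose uptake, had 253, 265 and 242 CPM in AdLacZ and 209, 812 and 737 CPM in AdLmo3, with replicate 2 as the highest. *C4b*, a complement component, had 119, 63.4 and 119 CPM against 98.8, 136 and 360 CPM, and *Spp1* (osteopontin) 14.6, 13.1 and 10.2 CPM against 13.8, 15.5 and 47.4 CPM. Of 324 tested genes outside both interferon lists whose promoter window held an ISRE core, 6.79% were more than 2-fold higher in AdLmo3 replicate 3 than in replicate 1, and of 9281 without a core 1.37% were. Both lists leave out some interferon-inducible genes, such as *Ly6a* and *Ifi202b*, and the part of such genes in these shares was not tested.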
